A study of Gallus gallus with 6 samples.

Results

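Transcription factors that mark mesenchyme or tendon, namely SCX, SNAI2, TWIST1, TWIST2, ZEB2, PRRX1, MSX1, MSX2 and BHLHE40, were followed in chicken embryo dermal myofibroblasts whose TGF-beta receptor kinase was inhibited. They were picked with earlier results of these data known; within that choice every probe set that carries one of the gene symbols was kept, whatever its values: 18 probe sets for 9 genes, of 38535 probe sets on the array. The treated cells had received TGFBR1 Kinase Inhibitor II, a naphthyridine that blocks the type I TGF-beta receptor kinase, at 500 nM for 48 h, and the control cells only its solvent, DMSO, at 0.1%. Both groups were skin-explant cultures from brown Leghorn embryos taken at day 10, kept in 4% serum of fetal calves and 2% serum of chickens, and each had 3 biological replicates on an array of their own, 6 arrays in all. Whether each replicate is a culture of different embryos is not stated, and the spread behind the p-values may therefore be technical. The series title names the expression program under TGF-beta control as the question.

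SCX, TWIST1, TWIST2 and BHLHE40 are basic helix-loop-helix (bHLH) proteins. SCX, scleraxis, is the classic marker of tendon and ligament progenitors, and SCX and the TWIST proteins bind E-box DNA together with the widely expressed E proteins TCF3, TCF4 and TCF12. SNAI2 and ZEB2 are zinc finger repressors that, with SNAI1, ZEB1 and the TWIST proteins, are known for silencing E-cadherin during epithelial to mesenchymal transition (EMT). PRRX1, MSX1 and MSX2 are homeodomain proteins of limb and head mesenchyme, and MSX genes are known targets of BMP signalling. BHLHE40 is a repressor known from the circadian clock and the response to low oxygen.

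Values are log2 intensities, on which 1 unit is a 2-fold difference in signal, and dim probe sets gather between about 2 and 3. A probe set was tested if it reached a log2 value of 4 in at least 3 of the 6 arrays, whatever their group; 13 of the 18 member probe sets did, at least 1 for each gene. The SCX probe set and the dimmer BHLHE40 probe set met this rule through their 3 DMSO arrays, the group where they are higher, with 2 and 1 inhibitor arrays at 4 or above; the other 11 reached 4 in all 6 arrays. The fit was limma with the replicate number as a block, so that each inhibitor array was set against the DMSO array of the same number, and a change was called at an adjusted p under 0.05 over all 16567 tested probe sets. Of the 13 member probe sets 5 rose (38.5%) and 6 fell (46.2%), while 14.9% of all tested probe sets rose and 13.2% fell. ZEB2 gave 2 of the rises and BHLHE40 2 of the falls, so these are counts of probe sets and not of genes. Without the block 3 rose and 5 fell, when 7.27% and 6.51% of all did. The median log2 difference of the 13 was 0.25, and that of all tested probe sets was 0.01. Every one of the 13 had all 3 pairs in 1 direction, as did 61.5% of all tested probe sets, and in 12 of them the groups did not overlap, as in 35.8% of all. Given how the members were picked, these shares describe the set and do not test it.

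**Figure D1:**
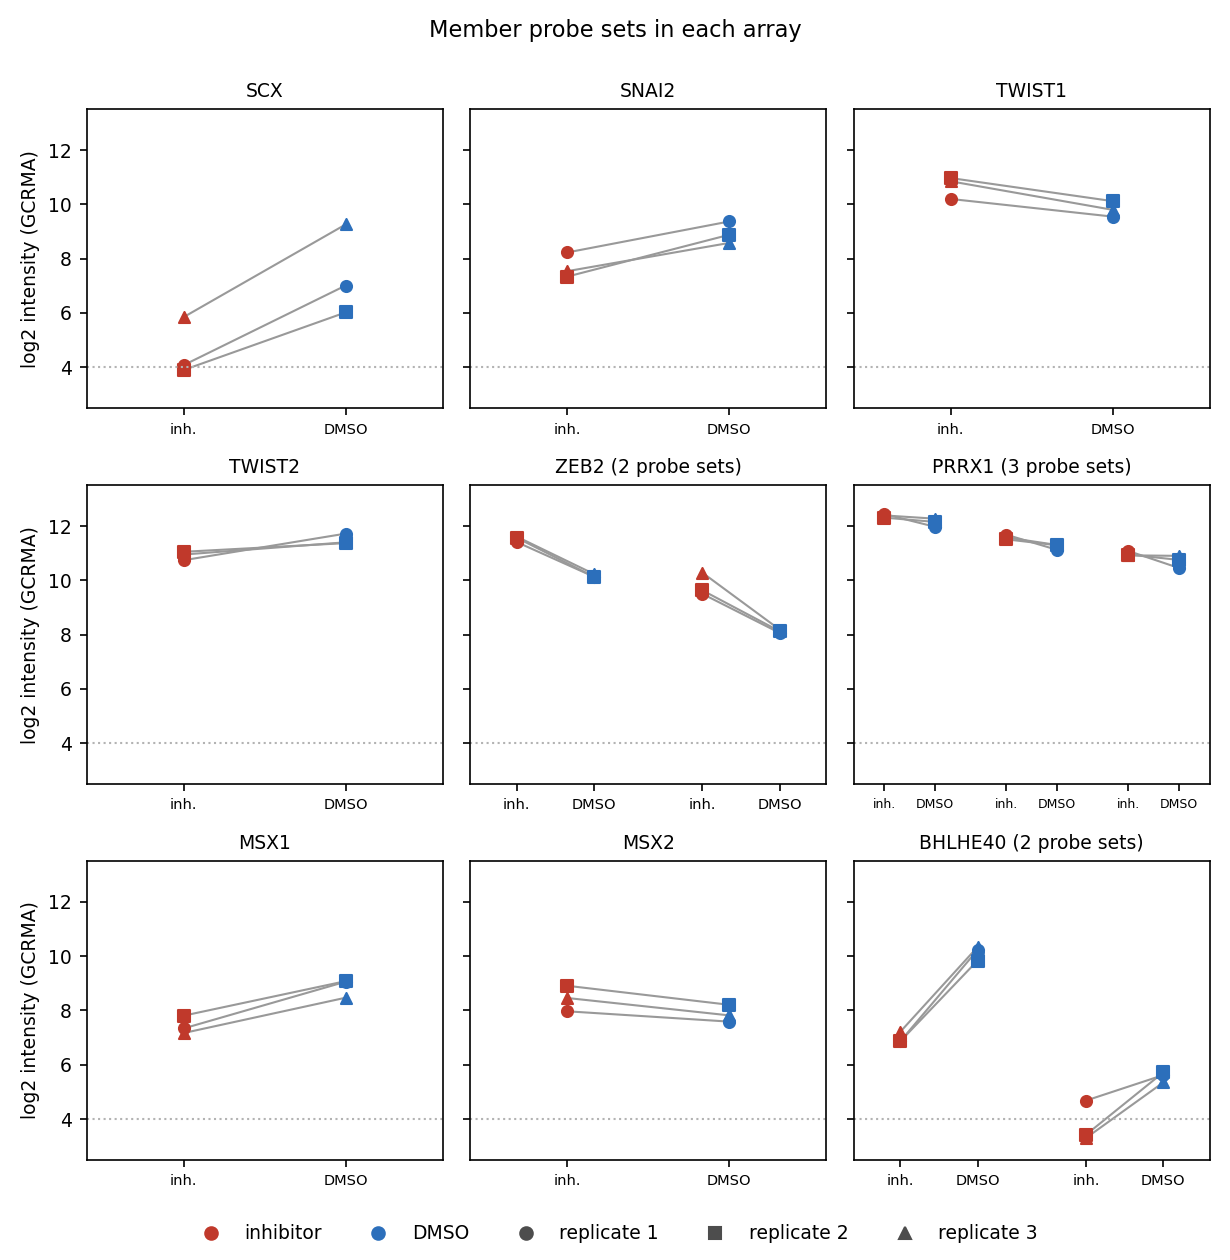
Log2 intensity (y axis) of each tested member probe set in every array, inhibitor on the left and DMSO on the right of each panel, with grey lines joining arrays of the same replicate number and a dotted line at 4. SCX falls in all 3 pairs from 3 different levels, BHLHE40 falls in both probe sets, ZEB2 rises in both, and MSX2 is the gene whose groups overlap.

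SCX fell, and its level differed between the replicate numbers as well. The inhibitor arrays stood at 4.08, 3.90 and 5.85 for replicates 1, 2 and 3, and the DMSO arrays at 7.01, 6.02 and 9.26. All inhibitor values lay below all DMSO values, with replicate 3 the highest in both groups. The 3 pair differences were -2.92, -2.12 and -3.41, a mean of -2.82 ± 0.26 (SE), or 7.05-fold lower (limma adjusted p 0.00204), the 173rd largest difference in size of the 16567. Without the block, where the spread between replicate numbers counts as error, SCX did not pass (-2.82 ± 0.91, limma adjusted p 0.0943). The mean of both arrays of a replicate was 5.55, 4.96 and 7.55 for replicates 1, 2 and 3, a range of 2.59, when the median range over all tested probe sets was 0.30 and only 0.374% of them had a range as wide. The inhibitor arrays of replicates 1 and 2 lie close to the zone where dim values gather, so the size of the fall in these pairs depends on that zone.

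The gene whose profile over the 6 arrays lay nearest to that of SCX, of 7784 named genes compared, was LECT1, chondromodulin, the closest relative of the tendon protein tenomodulin. LECT1 stood at 4.24, 3.25 and 4.69 in inhibitor arrays and at 6.50, 4.92 and 7.78 in DMSO arrays. It fell by 2.34 ± 0.28 (limma adjusted p 0.00414), and its replicates kept the order seen for SCX, with 3 highest and 2 lowest in each group. The root mean square distance between the centred profiles was 0.53 log2 units, and the next nearest were SPTBN5, a spectrin, at 0.74 and PXYLP1, a phosphatase of proteoglycan linker synthesis, at 0.78. This likeness is a description over 6 arrays. LECT1 was chosen for it, so its fall and its replicate order follow from the choice and add nothing to it. The lowest LECT1 inhibitor value, 3.25, lies close to the zone where dim values gather.

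Other tendon genes ranged from the dimmest to the brightest signals. TNMD, tenomodulin, lay between 2.26 and 2.29 in all 6 arrays and FMOD, fibromodulin, and THBS4 between 2.11 and 2.35, all among the dimmest values. MKX, mohawk, a homeobox factor of tendon, was bright and stood at 12.50, 12.19 and 12.27 in inhibitor arrays and 12.60, 12.23 and 12.29 in DMSO arrays. It did not pass the test (-0.06 ± 0.06; limma adjusted p 0.516). Of 18 tested genes of a tendon and ligament list 12 fell and none rose (6 fell and none rose without the block), against 15.2% down and 16.5% up among 8124 tested genes with the block and 7.5% and 8.17% without it. CILP, a matrix protein known from cartilage and 1 of the falls, stood at 3.58, 3.21 and 3.41 in inhibitor arrays and at 4.54, 5.63 and 5.72 in DMSO arrays. It passed the filter through its DMSO arrays alone, so it had to differ; with a filter minimum of 5, which leaves CILP out, 11 fell. At an unadjusted limma p under 0.05, 1 gene of the list was higher and 12 were lower. Counts at an unadjusted p, here and below, have no share over all genes at that cutoff beside them. The median of the list was -0.82, against 0.01 for all genes. The largest falls were those of the matrix proteins BGN (-3.65 ± 0.24), COMP (-2.71 ± 0.28), TNC (-2.65 ± 0.18) and THBS2 (-2.48 ± 0.13), with limma adjusted p between 0.000531 and 0.00278. Most genes of this list encode matrix proteins that fibroblasts also express. This list and those below were chosen with earlier results of these data known. Their counts and medians therefore describe the lists and do not test them.

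SNAI2 fell. It stood at 8.23, 7.34 and 7.54 in inhibitor arrays and at 9.37, 8.88 and 8.58 in DMSO arrays, with no overlap between the groups. The difference was -1.24 ± 0.13, 2.36-fold lower, and the pairs gave -1.14, -1.54 and -1.04 (limma adjusted p 0.00302, and 0.0401 without the block). Its paralogue SNAI1, the founding member of the SNAIL repressors, moved the other way. The brighter of its probe sets stood at 12.45, 12.51 and 12.41 in inhibitor arrays and at 10.27, 10.37 and 10.29 in DMSO arrays. SNAI1 rose by 2.15 ± 0.06 (limma adjusted p 0.000287), and the dimmer probe set rose by 2.31 ± 0.23.

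ZEB2 rose in both of its measured probe sets. The brighter stood at 11.41, 11.57 and 11.61 in inhibitor arrays and 10.13, 10.13 and 10.23 in DMSO arrays, a difference of 1.36 ± 0.07 or 2.57-fold (limma adjusted p 0.000535). The dimmer ZEB2 probe set stood at 9.50, 9.63 and 10.28 in inhibitor arrays and 8.06, 8.12 and 8.18 in DMSO arrays, a difference of 1.69 ± 0.15 or 3.22-fold (limma adjusted p 0.00188). Neither overlapped between groups, and the brighter one had pair differences of 1.28, 1.43 and 1.38, the narrowest range among the tested member probe sets. The other 3 ZEB2 probe sets lay between 2.35 and 2.93 in every array and were not tested. ZEB1, the paralogue, did not pass in either of its tested probe sets (-0.06 ± 0.07 and 0.11 ± 0.13; limma adjusted p 0.571 and 0.579).

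TWIST1 and TWIST2 changed in opposite directions, by less than 2-fold each. TWIST1 stood at 10.20, 10.97 and 10.85 in inhibitor arrays and at 9.55, 10.12 and 9.80 in DMSO arrays. The groups lay close together without overlapping, and the rise was 0.85 ± 0.10, or 1.8-fold (limma adjusted p 0.00366, and 0.0661 without the block). TWIST2, also known as Dermo1 for its expression in dermis, stood at 10.74, 11.05 and 10.95 in inhibitor arrays and at 11.72, 11.37 and 11.40 in DMSO arrays. It fell by 0.58 ± 0.14 on the log2 scale, 1.5-fold lower (limma adjusted p 0.0308, and 0.035 without the block). Pair 1 gave the largest TWIST2 difference, -0.98, against -0.32 and -0.45 in pairs 2 and 3, and without replicate 1 the difference was -0.39 (limma adjusted p 0.0801).

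PRRX1 was bright in every array and changed little. Its brightest probe set stood at 12.44, 12.31 and 12.39 in inhibitor arrays and at 11.97, 12.15 and 12.27 in DMSO arrays, a difference of 0.25 ± 0.09 that did not pass (95% interval 0.03 to 0.47; limma adjusted p 0.0861). The probe set next in brightness stood at 11.68, 11.51 and 11.58 in inhibitor arrays and 11.12, 11.29 and 11.30 in DMSO arrays and rose by 0.36 ± 0.09, or 1.28-fold (limma adjusted p 0.0358). The dimmest of the PRRX1 probe sets did not pass at 0.29 ± 0.13 (95% interval -0.04 to 0.61; limma adjusted p 0.161). All 3 PRRX1 probe sets had their largest difference in pair 1, between 0.47 and 0.64, and differences of 0.02 to 0.28 in the other pairs. The called probe set lost its call without replicate 1 (0.25; limma adjusted p 0.161) and without replicate 2 (0.42; 0.0776). PRRX2, the paralogue, did not pass in either tested probe set (0.26 ± 0.09 and 0.82 ± 0.31; limma adjusted p 0.0883 and 0.111).

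MSX1 fell and MSX2 rose. MSX1 stood at 7.34, 7.81 and 7.17 in inhibitor arrays and at 9.06, 9.08 and 8.47 in DMSO arrays, with no overlap. The fall was -1.43 ± 0.13, 2.69-fold lower, with pair differences of -1.72, -1.27 and -1.30 (limma adjusted p 0.00194, and 0.0132 without the block). MSX2 stood at 7.97, 8.91 and 8.46 in inhibitor arrays and at 7.59, 8.21 and 7.82 in DMSO arrays. Its groups overlapped, since inhibitor replicate 1 lay below DMSO replicate 2, but each pair rose, by 0.38, 0.71 and 0.64, a mean of 0.58 ± 0.11 or 1.49-fold (limma adjusted p 0.0181). The MSX2 call was lost without the block (limma adjusted p 0.222), without replicate 1 (0.67; 0.0579) and without replicate 2 (0.51; 0.113). The profiles nearest to MSX1 were those of GEM, a small GTPase (distance 0.15), the metalloproteinase inhibitor TIMP2 (0.18) and FICD, an enzyme of the endoplasmic reticulum (0.20).

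BHLHE40 had the largest change of the 9 genes. Its brightest probe set stood at 6.86, 6.86 and 7.21 in inhibitor arrays and at 10.23, 9.84 and 10.34 in DMSO arrays, far apart in every pair. The difference was -3.16 ± 0.11, 8.92-fold lower, the 119th largest in size of all tested probe sets (limma adjusted p 0.000377). A dimmer BHLHE40 probe set stood at 4.68, 3.42 and 3.30 in inhibitor arrays and at 5.62, 5.72 and 5.35 in DMSO arrays and fell by 1.76 ± 0.29 on the log2 scale (limma adjusted p 0.0103). Another reached 4 in 2 arrays only and was not tested; it stood at 2.83, 2.39 and 2.68 in inhibitor arrays and at 5.12, 3.57 and 4.79 in DMSO arrays. The fourth lay between 1.72 and 1.92 throughout. The inhibitor values of the dimmer probe sets lie in or near the zone of the dimmest values, so the sizes of their falls depend on it. The profiles nearest to the brightest BHLHE40 probe set were those of the receptor phosphatase PTPRQ (distance 0.21), the tetraspanin TSPAN2 (0.24) and the Ras-like RASL11B (0.25).

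**Figure D2:**
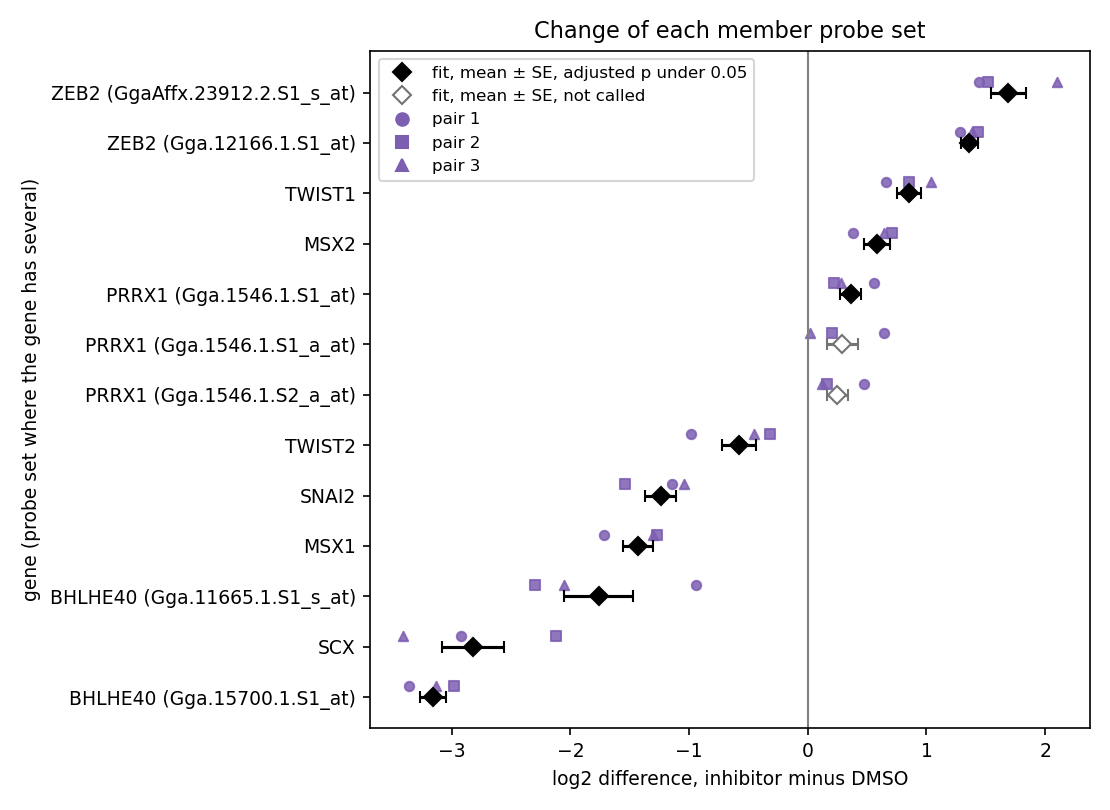
Log2 difference, inhibitor minus DMSO (x axis), of the 13 tested member probe sets (y axis), with diamonds for the limma fit ± SE, filled where the adjusted p was under 0.05, and small purple symbols for the 3 replicate pairs. The differences run from -3.16 for BHLHE40 to 1.69 for ZEB2, and every probe set has its 3 pairs on the same side of 0.

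The brightest probe sets of paralogous genes were compared in 6 couples. The change of SNAI2 minus that of SNAI1 was -3.39 ± 0.27 (SD over 3 pairs), that of ZEB2 minus ZEB1 1.42 ± 0.17 and that of TWIST1 minus TWIST2 1.43 ± 0.24. For MSX1 minus MSX2 it was -2.01 ± 0.08, the most even of the couples, with pairs at -2.10, -1.97 and -1.95, and for BHLHE40 minus BHLHE41 it was -2.96 ± 0.39. In each of these 5 couples the within-array difference of the couple did not overlap between the groups. That gives an exact permutation p of 0.1 (two-sided), the smallest that 3 against 3 arrays allow, and 0.12 adjusted over the 6 couples. The permutation did not keep the pairs. For SNAI2 with SNAI1 and TWIST1 with TWIST2 this p was certain, since both genes separate the groups in opposite directions. The members were picked with earlier results known, so these p-values only describe the couples. PRRX1 minus PRRX2 was -0.01 ± 0.29 (exact permutation p = 1). BHLHE41, the other clock repressor of the BHLHE40 family, stood at 8.24, 6.83 and 7.31 in inhibitor arrays and 8.56, 6.50 and 7.89 in DMSO arrays and did not pass (-0.19 ± 0.20; limma adjusted p 0.518). Probe sets can differ in how steeply they respond, so the sizes are less firm than the signs.

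**Figure D3:**
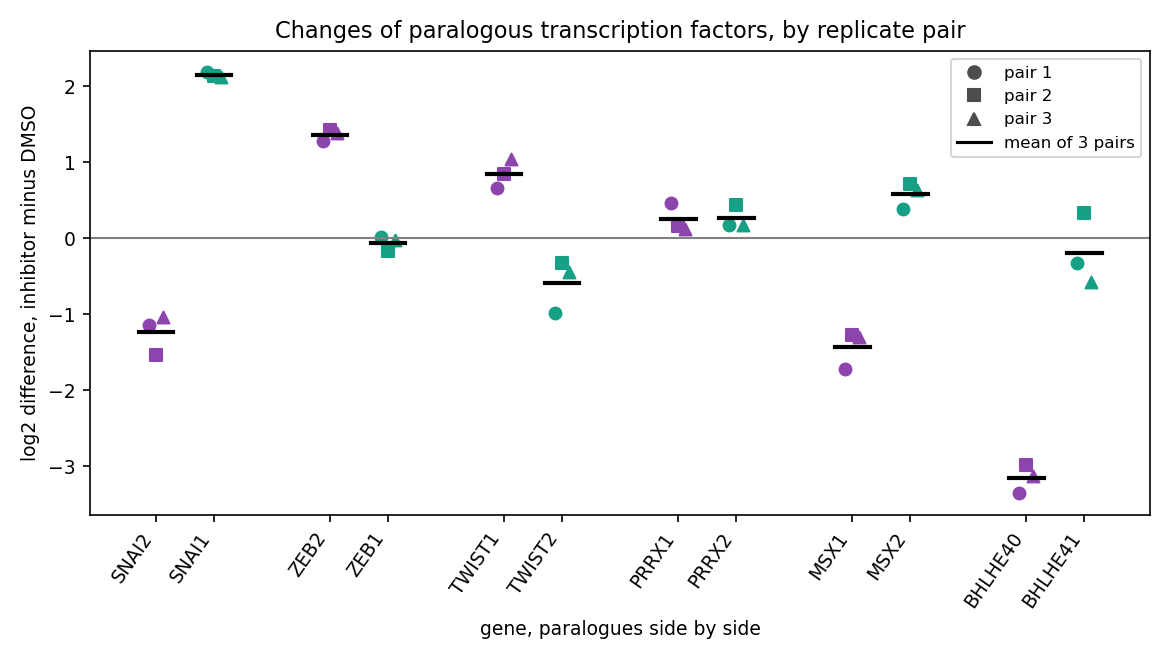
Log2 difference, inhibitor minus DMSO (y axis), in each of the 3 replicate pairs for the brightest tested probe set of each gene, with paralogues next to each other on the x axis and a bar at the mean. SNAI2 and SNAI1, TWIST1 and TWIST2, and MSX1 and MSX2 lie on opposite sides of 0, while PRRX1 and PRRX2 lie together.

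Of the partners of the bHLH members no E protein passed the test by its brightest probe set, and of their inhibitors all 4 ID genes rose. TCF3 (0.11 ± 0.07) and TCF12 (-0.13 ± 0.06), the E proteins measured at log2 values above 11, gave limma adjusted p-values of 0.320 and 0.172, and TCF4 (0.48 ± 0.30; 0.291) stood between 3.61 and 5.19. Of 3 dimmer TCF12 probe sets 2 fell, by 0.50 and 0.60, and neither passed without the block (limma adjusted p 0.141 and 0.164). ID proteins bind E proteins and keep them from DNA. Only their transcripts were measured here. These rose in each case, ID2 by 2.74 ± 0.18, ID1 by 1.94 ± 0.18, ID4 by 0.90 ± 0.06 and ID3 by 0.80 ± 0.09 (limma adjusted p 0.000815 to 0.00366). Of the 9 tested genes of this list 4 rose and 1, the neural factor BHLHE22 (-1.22 ± 0.12), fell, with a median of 0.48, against 16.5% up and 15.2% down among all tested genes, and 4 rose and 0 fell in limma without the block, where 1 was lower at an unadjusted p under 0.05. In a list of BMP-responsive factors that shares the ID genes, 6 of 10 tested genes rose and none fell, with a median of 0.69. Among all tested genes the same 16.5% rose and 15.2% fell, and without the block 5 of the list rose and 0 fell. At an unadjusted limma p under 0.05, 7 were higher and 0 lower. Neither this count nor that of the list with the bHLH partners has a share over all genes beside it. Besides the 4 ID genes the rises were those of SMAD9, a BMP-branch SMAD (1.83 ± 0.21), and HAND2 (0.59 ± 0.13, lost without the block). SMAD6 (0.20 ± 0.08), SMAD7 (-0.33 ± 0.18), DLX5 (-0.16 ± 0.12) and DLX6 (-0.42 ± 0.18) did not pass (limma adjusted p 0.101 to 0.388). Of the MSX genes, which are not on that list, MSX2 rose, a call lost without the block, and MSX1 fell.

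Among 18 other tested EMT and mesenchyme factors 7 rose and 1 fell (5 and 1 without the block), with a median of 0.34, where 16.5% of all tested genes rose and 15.2% fell (8.17% and 7.5% without the block). Besides SNAI1 the largest changes were the rises of the zinc finger factor GATA6 (2.54 ± 0.20) and the homeobox gene MEOX2 (2.02 ± 0.09) and the fall of RUNX1, a runt-domain factor (-2.34 ± 0.18). Their limma adjusted p lay between 0.000511 and 0.00131. Of the remaining 11 on the array, such as SOX9 at 2.03 to 2.07, none reached the test.

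Genes that the EMT repressors are known to act on were for the most part dim. CDH1, E-cadherin, lay between 2.11 and 2.16 in all 6 arrays, and 13 of 18 epithelial genes on the array were not tested. Of the 5 tested 3 rose and 1 fell with a median of 0.63 (1 and 1 without the block). Among all tested genes 16.5% rose and 15.2% fell (8.17% and 7.5% without the block). The 5 genes are too few to set against these shares. KRT7, a keratin of simple epithelia, stood at 13.09, 13.53 and 13.35 in inhibitor arrays and at 5.45, 9.56 and 8.87 in DMSO arrays (5.37 ± 0.71; limma adjusted p 0.00526). Its probe set is of the kind, ending in s_at, that can bind more than 1 transcript, as are the only probe sets of SCX and MSX1 and the dimmer tested ones of ZEB2 and BHLHE40. The junction genes TJP1 (0.64 ± 0.11) and PKP2 (0.63 ± 0.10) rose and JUP, plakoglobin, fell (-0.77 ± 0.09). Without the block TJP1 and PKP2 did not pass (limma adjusted p 0.0572 and 0.383). Of 10 tested mesenchymal adhesion and cytoskeleton genes 1 rose and 5 fell, with a median of -0.32, where 16.5% and 15.2% of all tested genes did. In limma without the block 0 rose and 4 fell, where 8.17% and 7.5% of all tested genes did. At an unadjusted p under 0.05 in that fit 1 was higher and 4 were lower, with no share over all genes beside them. The cadherin of osteoblasts and mesenchyme, CDH11, fell (-0.94 ± 0.07), as did the matrix proteins POSTN (-2.81 ± 0.33) and SPARC (-0.57 ± 0.05). N-cadherin, CDH2, rose by 0.52 ± 0.11 in its brighter probe set (limma adjusted p 0.0209, and 0.0571 without the block), while the dimmer one stood at 0.08 ± 0.17.

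Of 11 tested clock genes, set beside BHLHE40, 2 rose and 3 fell, with a median of -0.14 (1 and 2 without the block), where 16.5% of all tested genes rose and 15.2% fell. With so few genes these counts do not set the list apart. NFIL3 (1.38 ± 0.08) and HLF (0.87 ± 0.10), transcription factors of the clock's output, rose, and PER3, a period protein (-1.06 ± 0.24), and RORA, a nuclear receptor (-1.0 ± 0.16), fell (limma adjusted p 0.000668 to 0.0262). HLF did not pass without the block (limma adjusted p 0.110).

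**Figure D4:**
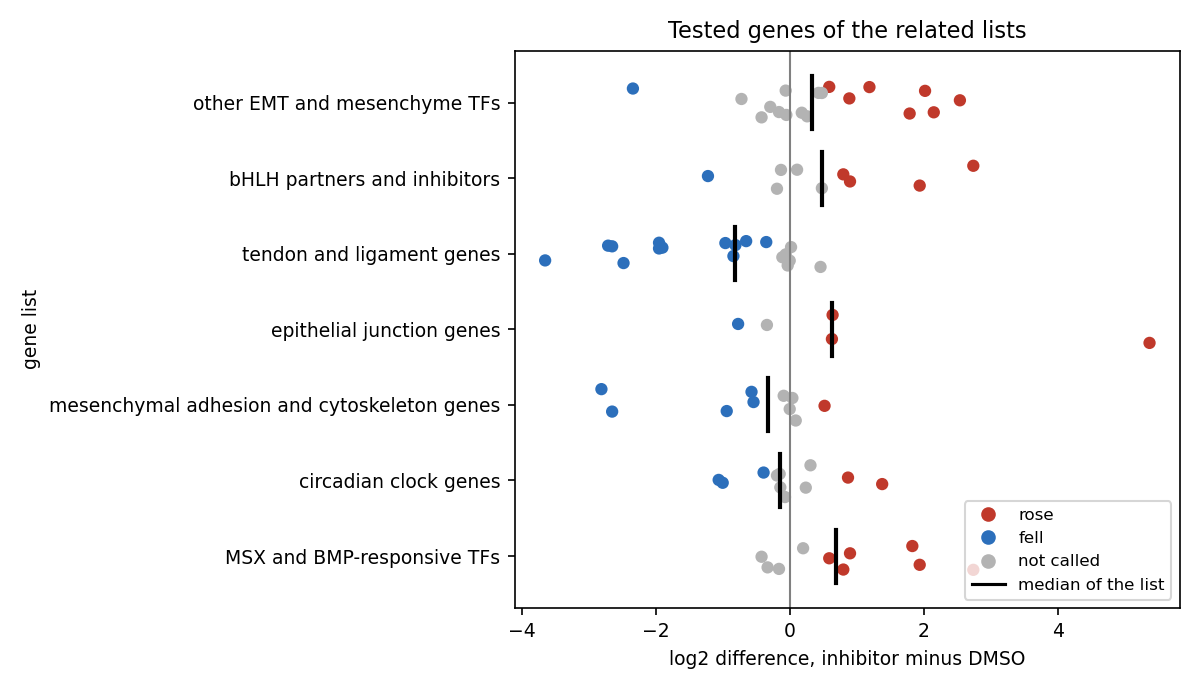
Log2 difference, inhibitor minus DMSO (x axis), of every tested gene of the 7 related lists (y axis), with red for genes that rose, blue for genes that fell, grey for genes not called and a black bar at the median of the list. The tendon list has its median at -0.82 with 12 falls and no rise, and the lists that hold the ID genes have medians of 0.48 and 0.69. The lists were chosen with earlier results known, so these values describe them and do not test them.

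The labelled cell type was checked by its markers. All 9 fibroblast and myofibroblast markers were tested, and their summed level was 17.42 to 17.60 in inhibitor arrays and 17.55 to 17.66 in DMSO arrays (log2 of the summed intensities). That sum is carried by VIM, COL1A1 and COL3A1, which lie near the top of the scale. Within the list the receptor PDGFRB rose by 1.20 ± 0.19 (limma adjusted p 0.00889) and COL1A2 fell by 0.35 ± 0.07 (0.022, and 0.189 without the block). The smooth muscle genes ACTA2 (mean 7.89 in inhibitor and 7.43 in DMSO arrays) and TAGLN (13.45 and 13.63) did not pass. Their differences were 0.46 ± 0.21 and -0.18 ± 0.06 (limma adjusted p 0.165 and 0.0636). Defining markers of keratinocytes (KRT5, TP63, DSP), skeletal muscle (MYOD1, MYOG), melanocytes (TYR, PMEL, SOX10) and cartilage (ACAN, MATN1) stood under 3 in every array. The tested markers of these lists, KRT14 at 4.75 to 6.00, TNNT3 at 3.80 to 4.99 and COL2A1 at 3.96 to 4.12, did not pass (limma adjusted p 0.560, 0.166 and 0.898), except MITF. Marker sums that moved with the treatment were the leukocyte list (4 of 6 tested), at 8.72 to 9.15 in inhibitor arrays and 8.19 to 8.46 in DMSO arrays, and the melanocyte and Schwann list (1 of 4, MITF, which rose by 0.97 ± 0.14, limma adjusted p 0.00729, and 0.0619 without the block), at 8.94 to 9.34 in inhibitor arrays and 7.70 to 8.67 in DMSO arrays. The leukocyte sum rests largely on PTPRC, which did not pass (0.74 ± 0.23, limma adjusted p 0.07). CD74, CTSS and CSF1R stood between 4.51 and 6.52 and did not pass either (limma adjusted p 0.0842, 0.232 and 0.299), whereas LCP1 and CD3E stood under 2.5. The endothelial list (1 of 6, PECAM1) lay at 5.89 to 6.39 in inhibitor arrays and 6.38 to 6.87 in DMSO arrays. PECAM1 fell by 0.82 ± 0.19 in its brightest probe set (limma adjusted p 0.029, and 0.0409 without the block). Another of its probe sets fell by 1.90 ± 0.15, and the remaining tested one did not pass (-1.01 ± 0.41, limma adjusted p 0.127). VWF, not tested, reached 4.46 in the inhibitor array and 4.98 in the DMSO array of replicate 2. CDH5, also not tested, went the other way in replicate 2, at 4.03 in the inhibitor array and 2.78 in the DMSO array. The part of these shifts in the changes of the transcription factors was not tested. In such cultures fewer cells that express a gene and less RNA per cell cannot be told apart.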

How the data were processed

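Chicken Affymetrix arrays were read from 3 inhibitor and 3 DMSO cultures; RNA was extracted with Trizol and 5 ug labelled, per the labels' protocols. The authors deposited a log2 intensity for each probe set of each array. Per the submitters' processing notes GCRMA and Partek 6.4 were used; their settings were not stated in these sources. The log2 scale follows from the range of the values, 1.12 to 16.0, and from array medians between 2.98 and 3.03. GCRMA pulls dim probe sets towards a floor, which shrinks differences there. The number of arrays limits the precision. No arrays were identical.

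Groups and replicate numbers came from the titles. The numbers were used as pairs by the rule that defined this set of genes, and the labels do not describe the pairing. Deviations from the group means correlated at 0.63, 0.67 and 0.45 between arrays of the same number. Between unlike numbers they correlated at -0.45 to -0.14. Within each group the deviations cancel out, which ties the values for unlike numbers to those for like numbers. After 96 control probe sets were removed from the 38535, the 16567 (43.1%) with a value of at least 4 in at least 3 arrays entered the fit (limma 3.58.1, R 4.3.3; replicate number as a block, eBayes with trend, two-sided, Benjamini-Hochberg over all tested probe sets). The fit was checked on simulated data, but no setting or result of that check is reported here. Symbols came from the platform annotation (27178 probe sets with 1 symbol, 177 with several, 11180 with none), which can be old. Of the probe sets with 1 symbol, 26863 had a gene identifier found in a RefSeq table of assembly GRCg7b. A list gene was represented by its brightest tested probe set, giving 8124 genes. Named beside the members were up to 4 called genes of each list with the largest difference, the bHLH partners, SNAI1, ZEB1, BHLHE41, TNMD, MKX, CDH1, CDH2 and the ID genes, and for the 3 members with the largest change the 3 genes with the nearest centred profile. PRRX2, FMOD, THBS4, SOX9, CILP, HAND2, SMAD6, SMAD7, DLX5, DLX6, COL14A1, LUM, COL5A1, the markers and chromosome neighbours were added after values were seen. The members and lists were chosen with earlier results of these data known. Alternatives were no block, no filter, a minimum of 5, median centring, quantile normalization, no variance trend and leaving out each replicate pair; leaving out 1 array of a pair takes that pair out of the comparison.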

Additional observations from a re-analysis of the deposited data

How the results depend on the processing

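No member probe set changed its direction under any of the 9 alternatives, but most of these could not have changed it. Dropping the block, the filter or the variance trend, or raising the filter minimum, leaves the difference itself unchanged. Every tested member probe set had all its pairs in the same direction, so leaving out a replicate could not turn it. Only median centring and quantile normalization could have done so. Of the member values 103 kept their side of the threshold while 14 lost a call. Calls were lost without the replicate block, where the differences are the same, by SCX (-2.82, limma adjusted p 0.0943), TWIST1 (0.85, 0.0661) and MSX2 (0.58, 0.222). They were lost with no filter by TWIST2 (-0.58, 0.144), the dimmer BHLHE40 probe set (-1.76, 0.0697), PRRX1 (0.36, 0.134) and MSX2 (0.58, 0.0691), and with no variance trend by TWIST2 (-0.58, 0.0627) and PRRX1 (0.36, 0.0823).

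Leaving out each replicate in turn, SCX ranged from -3.17 to -2.52, SNAI2 from -1.34 to -1.09, MSX1 from -1.51 to -1.28, TWIST1 from 0.75 to 0.95, TWIST2 from -0.71 to -0.39, MSX2 from 0.51 to 0.67, the called PRRX1 probe set from 0.25 to 0.42, the brighter ZEB2 probe set from 1.33 to 1.41 and the brighter BHLHE40 probe set from -3.25 to -3.05. Over all tested probe sets 2470 rose and 2191 fell with the block; 1205 and 1078 did without it, 1140 and 999 with no filter, 1007 and 907 without replicate 1 and 1338 and 1108 without replicate 2, and the range over the 3 replicates left out was 1007 to 2573 up and 907 to 2406 down. With median centring 2310 rose and 2498 fell. Member probe sets that rose numbered 3 without the block, 3 with no filter and 3 to 5 over the replicates left out, and those that fell 5 to 6. With no filter the falls include the BHLHE40 probe set that was too dim for the main fit (-1.86, limma adjusted p 0.0406). List genes that fell numbered 22 with the block, 13 without it and 15 to 22 over the replicates left out. Of 33 named list genes BHLHE41 alone turned, ranging from -0.45 without replicate 2 to 0.00 without replicate 3. CDH2, PER3, PKP2, RORA and TJP1 also lost their calls without 1 or 2 of the replicates. With no filter CDH2, PER3, PKP2, TJP1 and KRT7 lost theirs (limma adjusted p 0.0517 for KRT7 to 0.122 for PER3). Why calls are lost with no filter was not tested. What limits these results is the number of pairs and, for SCX and the dimmer BHLHE40 probe sets, signal close to the floor.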

Other observations

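Chromosome neighbours of the members, by gene order in assembly GRCg7b, were looked at after the members' values were known. ZEB2 lies between GTDC1, a glycosyltransferase-like gene, and ACVR2A, an activin receptor, and both rose beside it, by 0.69 ± 0.09 and 0.73 ± 0.09 (limma adjusted p 0.00456 and 0.00400). TWIST1 lies next to the histone deacetylase gene HDAC9 and TWIST2 next to HDAC4. HDAC9 rose by 0.34 ± 0.07 beside the rise of TWIST1, and HDAC4 stood at 0.19 ± 0.09 (limma adjusted p 0.182) beside the fall of TWIST2. Beside members that fell, ITPR1, a calcium channel next to BHLHE40, rose by 0.92 ± 0.12, and CYTL1, a cytokine-like gene next to MSX1, rose by 1.97 ± 0.22. CYTL1 stood at 4.32, 7.20 and 4.95 in inhibitor arrays and at 2.90, 4.79 and 2.86 in DMSO arrays, so its groups overlapped. It met the filter through its 3 inhibitor arrays, the group where it is higher, with 1 DMSO array at 4 or above. SFXN1, next to MSX2, rose by 0.38 ± 0.10. Of the 7 neighbours with a tested, named probe set 6 rose, where 16.5% of all tested genes did. Without the block HDAC9, CYTL1 and SFXN1 did not pass (limma adjusted p 0.449, 0.188 and 0.539), where 8.17% of all tested genes rose. The neighbours are few and were looked at after the members' values were known, so these counts describe them only. A link between neighbouring genes was not tested.

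The keratocan gene KERA, of cornea and tendon, was too dim for the test and was singled out after its values were seen. It stood at 2.97, 2.82 and 2.95 in inhibitor arrays and at 3.89, 2.97 and 4.46 in DMSO arrays. There replicate 3 was highest and replicate 2 lowest, the order also seen for SCX. LUM and COL5A1 of the tendon list had that order in DMSO arrays too, so it is not particular to KERA. COL14A1 of the same list, also too dim for the test, went the other way. Its pair differences were 0.54, 0.62 and 0.12.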
